A study of Mus musculus with 20 samples.

Results

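Iron handling in microglia was followed through 9 genes for the storage, transport and recycling of iron and heme, chosen by symbol from the 21315 gene symbols listed in each library. The 9 genes were chosen with earlier results of these data known. They were the ferritin chains Fth1 and Ftl1, the exporter Slc40a1 (ferroportin), the transferrin receptor Tfrc, the heme oxygenase Hmox1, the divalent metal transporters Slc11a1 and Slc11a2, the ferritin cargo receptor Ncoa4 and the lipid peroxide reductase Gpx4. RNA of microglia sorted as CD45mid and CD11b+ cells from brains of 9-month-old mice, all of strain C57BL/6 by their labels, was sequenced in 20 libraries, which fall into 6 conditions. In 3 WT and 3 APP-KI libraries the cells were also sorted on Td-tomato, a red reporter carried in a C3ar1 fl/fl line, and are labelled C3aR-positive (C3aR+). The 14 others were not selected on the reporter and are called sorted microglia here: 5 are APP-KI; C3aR-KO (APP-KI;C3aRKO in the labels), 3 are APP-KI, 3 are C3aR-KO (C3aRKO in the labels) and 3 are WT. APP-KI mice carry the APP NL-G-F knock-in and develop Aβ plaques, and the C3aR-KO removes C3ar1, the receptor of complement fragment C3a, in every cell of the body and not in microglia alone. Nothing in the labels says whether a library was 1 mouse or a pool, so p-values measure the spread between these libraries, which may be partly technical.

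Iron enters cells bound to transferrin through the transferrin receptor, is carried across membranes by divalent metal transporters, is kept in a ferritin shell built of heavy and light chains, and leaves through ferroportin. Macrophages and microglia also recover iron from ingested heme with heme oxygenase, and release stored iron by bringing ferritin to lysosomes with NCOA4. Much of this is set after transcription: iron regulatory proteins bind a short hairpin, the iron-responsive element, which in the 5′ untranslated region blocks translation and in the 3′ untranslated region stabilises the mRNA, so that mRNA levels need not follow protein levels.

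The hairpins are shown because they belong to this layer of control, which mRNA counts do not read. Transcripts of GENCODE M21 on GRCm38, the assembly also named mm10, were searched on the sense strand for the loop CAGTG followed by any base but G, a C placed 6 bases before the loop, and stems with at least 4 of 5 pairs on either side of that C. A match of 27 bases was present in 4 of the 9 genes, against 130 of 21877 protein-coding genes (0.594%). The 6 loop bases are in capitals.
Fth1: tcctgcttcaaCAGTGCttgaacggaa
Ftl1: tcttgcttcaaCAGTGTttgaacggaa
Slc40a1: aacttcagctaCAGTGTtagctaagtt
Tfrc site 1: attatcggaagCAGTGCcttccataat
Tfrc site 2: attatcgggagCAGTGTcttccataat
Tfrc site 3: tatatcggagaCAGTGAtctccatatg
Tfrc site 4: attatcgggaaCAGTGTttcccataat

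The Fth1 element lay in the 5′ untranslated region at chr19:9982733-9982759 on the plus strand. The Ftl1 element lay in the 5′ untranslated region at chr7:45459780-45459806 on the minus strand, and that of Slc40a1 at chr1:45925466-45925492, also in the 5′ untranslated region and on the minus strand. The 4 Tfrc elements lay in the 3′ untranslated region on the plus strand, at chr16:32631220-32631246, chr16:32631599-32631625, chr16:32631664-32631690 and chr16:32631711-32631737. Slc11a2 and the other 4 genes held no match to these letters. The search misses elements of another form, so this does not show that those genes lack one. In promoter windows of RefSeq on GRCm38.p6, 250 bases before to 50 bases after a start, the table held 13 windows of 6 of the 9 genes. The hypoxia response core ACGTG, searched on both strands, was in 4 of these windows, of Ncoa4 and Tfrc, and in 19.62% of all 32851 windows. The antioxidant response letters TGACNNNGC were in 1 window, of Ncoa4, and in 12.39% of all windows. The letters TCACGTGA of the lysosomal CLEAR element were in none of the 13 windows and in 0.974% of all, and CAGTG on the sense strand after the start was in none of the 13 and in 7.2% of all.

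The values, here called scaled reads, are read counts over the upper quartile (75th percentile) of their library, times a single constant of 35.2, and they are not divided by gene length. The libraries held between 13939559 and 76608464 reads. Of the 14 unselected libraries 7 belong to a first and 7 to a second library series, read from the library numbers in the file headers, and each series holds all 4 genotypes. All libraries labelled C3aR-positive form a series of their own. The paper bred the reporter mice in a cross of their own as well, apart from that with C3aR-KO mice. The libraries APP-KI replicate 4, C3aR-KO replicates 1 and 2 and APP-KI; C3aR-KO replicate 1, all of the first series, had reads on the fewest genes, 12387 to 13250, while APP-KI replicate 5 had reads on 21219 and the others on 14888 to 17450. C3ar1, the deleted gene, was at 275.6 to 340.0 scaled reads in the sorted WT and at 165.0 to 387.9 in the APP-KI libraries, against 39.9 to 68.1 in C3aR-KO and 61.9 to 80.4 in APP-KI; C3aR-KO. The WT libraries labelled C3aR-positive held 37.6 to 81.2 scaled reads of C3ar1, below every sorted WT library and at the level of the knockouts, which goes against their label, while the APP-KI libraries labelled C3aR-positive held 200.9 to 382.8. The comparison of these WT and APP-KI libraries therefore also sets low against high C3ar1, and C3ar1 level and APP-KI cannot be told apart in it.

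The 6 microglia markers summed to 8044 to 27593 scaled reads in the 20 libraries, with Cx3cr1 and Csf1r present in all. They summed to 21926 to 23665 in the WT and to 15332 to 16735 in the APP-KI libraries labelled C3aR-positive. There 4 of the 6 fell, beside 9.71% of all genes tested. The sums were 25346 to 27593 in sorted WT and 9343.5 to 20780 in sorted APP-KI libraries, where 1 of the 6 fell, beside 1.93%. In C3aR-KO libraries they were 14232 to 25671 and in APP-KI; C3aR-KO libraries 8044 to 22790, where 0 of the 6 fell, beside 2.97%. Endothelial markers summed to 31.1 to 78.9 in the 9 libraries without APP-KI and to 78.7 to 321.7 in the 11 with it, through Flt1 (6.98 to 22.2 and 78.4 to 313.6), while Cldn5 stayed at or below 10.3 and Pecam1 was lower with APP-KI (21.4 or more without it and as little as 0.294 with it, with no overlap). Oligodendrocyte markers summed to 63.1 to 161.7 without and 94.9 to 171.3 with APP-KI, astrocyte markers to at most 69.1 and at most 157.0, and monocyte and neutrophil markers to 40.7 to 753.4 and 29.7 to 270.1. Summed markers of red blood cells stayed at or below 21.9, of T and NK cells at or below 15.5 and of neurons at or below 18.7. The part of these cell types in the results below was not tested.

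Expression per kilobase of exon, from the union of annotated exons, gave the order of the genes in sorted WT microglia. Fth1, the ferroxidase chain of ferritin, was highest at 268.5 ± 51.0 scaled reads per kilobase (SD, n = 3), followed by the light chain Ftl1 at 135.5 ± 28.8. Slc11a1, a phagosomal metal transporter, followed at 88.6 ± 2.92, Hmox1 at 37.0 ± 2.66, Slc40a1 at 24.4 ± 0.573 and Gpx4 at 10.2 ± 0.575. Slc11a2 at 5.53 ± 0.169 and Ncoa4 at 5.48 ± 0.187 overlapped, and were the only neighbours in this order whose libraries did. Tfrc was lowest, at 2.72 ± 0.227 scaled reads per kilobase. Both ferritin chains thus stood at the top and the transferrin receptor at the bottom, with the caution that the union of exons is longer than most single transcripts, as the 3469 bases of Fth1 and 9365 of Ncoa4 show.

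**Figure D1:**
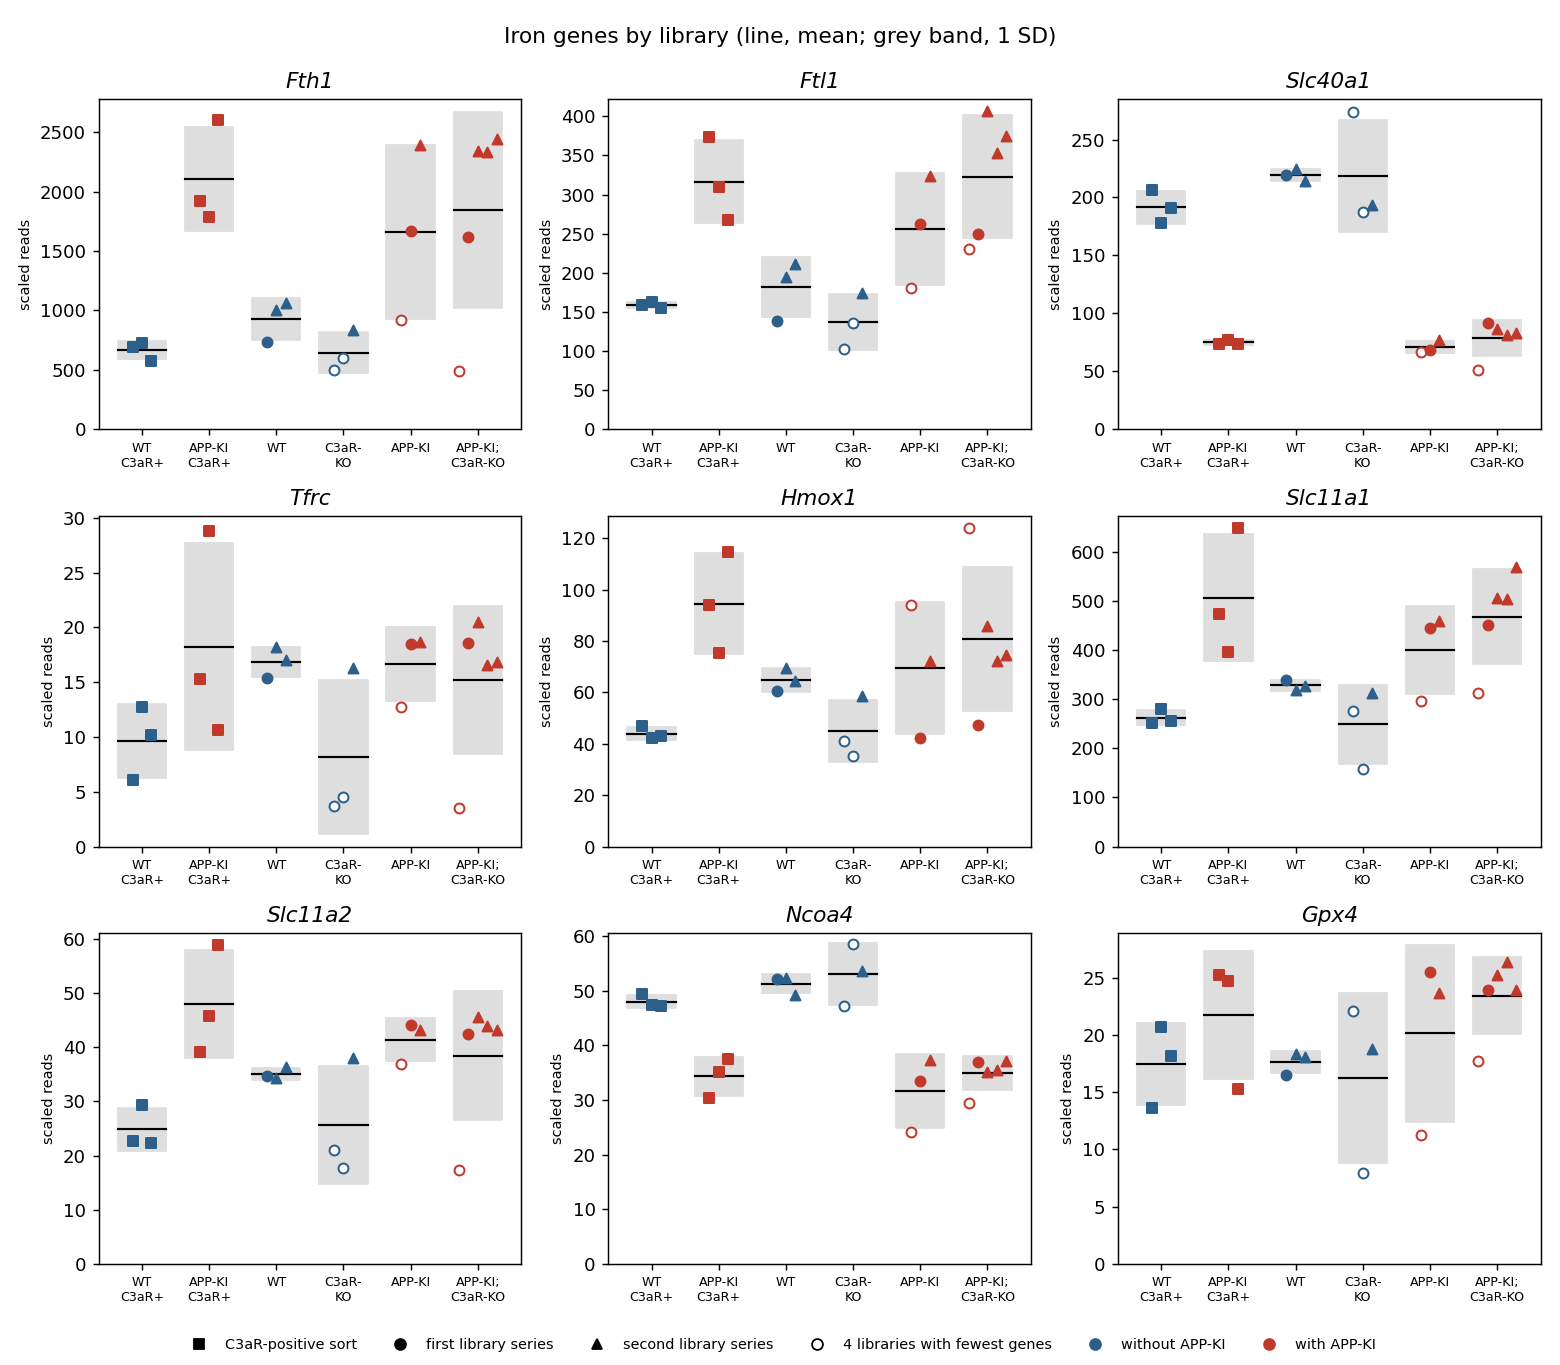
Scaled reads of the 9 iron genes (y axis of each panel, from 0) in 20 libraries by condition (x axis), with the mean as a line and 1 SD as a grey band. Slc40a1 and Ncoa4 of the 11 libraries with APP-KI lie below those of all 9 libraries without it, and open symbols, the 4 libraries with the fewest genes, are often the lowest of their condition.

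Ferroportin mRNA was lower in every APP-KI library. Slc40a1, whose product is the iron exporter of the cell surface, had 206.2, 177.6 and 191.2 scaled reads in the WT libraries labelled C3aR-positive and 73.8, 77.1 and 73.7 in the APP-KI libraries labelled C3aR-positive. The sorted WT libraries held 219.7, 224.8 and 214.5 and the sorted APP-KI libraries 66.6, 68.8 and 76.6. Among mice without C3ar1, the C3aR-KO libraries held 274.2, 187.5 and 193.4 and the APP-KI; C3aR-KO libraries 51.2, 91.9, 86.5, 81.1 and 82.9. No library with the knock-in, at 51.2 to 91.9, reached the lowest without it, at 177.6, whichever sort or C3ar1 genotype it came from. The share of all genes split in this way is not given here.

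The effect of APP-KI was tested 3 times on libraries that the comparisons do not share, with limma on log2(scaled reads + 1) and p-values adjusted by Benjamini and Hochberg's method across every tested gene, and a gene with an adjusted p-value under 0.05 is described as having risen or fallen. The log2 fold changes are on that scale, which understates changes of low genes. Slc40a1 fell by 1.34 on the log2 scale in microglia labelled C3aR-positive (SE 0.113, adjusted p = 7.61e-05, limma), from a mean of 191.7 ± 14.3 to 74.9 ± 1.94 scaled reads (SD, n = 3 each). It fell by 1.59 in sorted APP-KI against WT microglia (SE 0.209, adjusted p = 0.000363, limma) and by 1.49 in APP-KI; C3aR-KO against C3aR-KO microglia (SE 0.186, adjusted p = 0.000153, limma). The fall was present within each library series: the log2 difference of the means was -1.68 in the first and -1.51 in the second for APP-KI against WT, and -1.71 and -1.20 for APP-KI; C3aR-KO against C3aR-KO, with 1 to 3 libraries on a side. Slc40a1 passed the threshold in all 14 alternative settings tried for the first comparison and in all 26 tried for each of the other two.

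The comparisons in sorted microglia are drawn from a single fit of the 14 sorted libraries, so they share 1 estimate of the spread and of the series. The libraries labelled C3aR-positive were fitted on their own. In that fit the median gene lay at -0.17, and median ratio scaling moved it by 0.13 to -0.04, which changed the share of higher genes among those called from 57.3% (1602 higher, 1196 lower) to 74.0% (1832 higher, 643 lower). Under that scaling Slc40a1 fell by 1.21 on the log2 scale, Fth1 rose by 1.79 and Ftl1 by 1.12 (adjusted p = 0.000152, 0.000221 and 0.000338, limma), so the direction of none of the 3 turned.

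Slc40a1 is also made by macrophages at the borders of the brain, which can share the CD45 and CD11b gate. The 6 border macrophage markers summed to 357.4 to 1006 scaled reads in the 9 libraries without APP-KI and to 149.1 to 361.1 in the 11 with it, and these ranges overlap by 1 library on each side. Mrc1 (191.4 to 639.4 without and 79.7 to 211.9 with APP-KI) and F13a1 (94.8 to 245.2 and 44.2 to 101.6) made up most of the sum, while Lyve1 stayed at or below 39.2 and Pf4 at or below 24.3. Of the 6 markers 4 fell in microglia labelled C3aR-positive, where 9.71% of all genes tested fell, and 2 in each of the sorted comparisons of APP-KI with its controls, where 1.93% and 2.97% fell. Their part in the fall of Slc40a1 was not tested, and in bulk RNA fewer cells of a type and less RNA per cell cannot be told apart. The APP-KI library labelled C3aR-positive with the highest marker sum, replicate 1 at 361.1, held 73.8 scaled reads of Slc40a1, within the range of its group. A single library cannot decide what part these cells had.

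**Figure D2:**
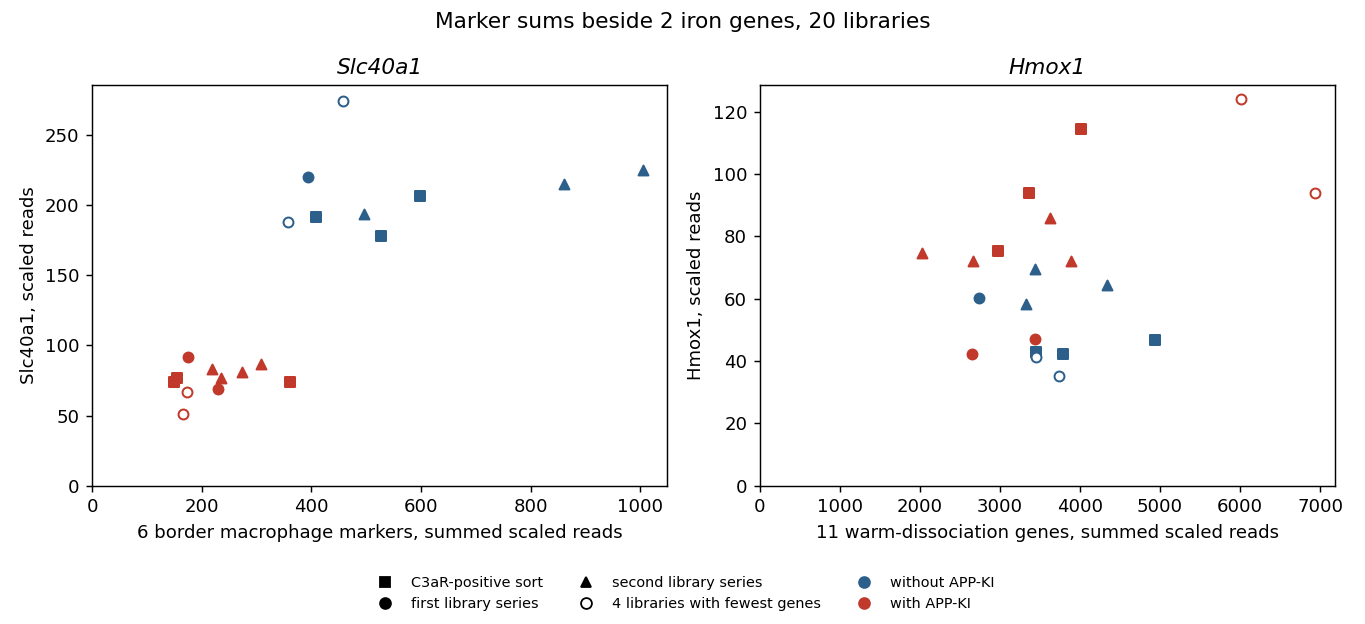
Left, Slc40a1 (y axis, scaled reads) against the summed scaled reads of 6 border macrophage markers (x axis); right, Hmox1 (y axis, scaled reads) against the sum of 11 genes raised by warm dissociation (x axis), 1 point per library. Libraries without APP-KI stand at 177.6 to 274.2 scaled reads of Slc40a1 and those with it at 51.2 to 91.9, and both libraries with warm-dissociation sums of 6011 and 6935 are open symbols with Hmox1 of 124.1 and 93.8.

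The ferritin chains moved the other way. Fth1, the heavy chain that oxidises iron as it enters the shell, had 693.5, 721.5 and 577.5 scaled reads in the WT libraries labelled C3aR-positive and 1924, 1789 and 2600 in the APP-KI libraries labelled C3aR-positive, which did not overlap. It rose by 1.65 on the log2 scale (SE 0.170, adjusted p = 0.000228, limma), a 3.14-fold difference. In sorted microglia the values were 730.0, 1003 and 1061 in WT and 920.6, 1669 and 2388 in APP-KI, and 497.5, 598.5 and 838.9 in C3aR-KO and 493.9, 1616, 2344, 2336 and 2443 in APP-KI; C3aR-KO. The lowest APP-KI value lay among those of WT and the lowest APP-KI; C3aR-KO value below all of C3aR-KO, and both belong to libraries with the fewest genes.

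With all 14 libraries Fth1 did not pass the threshold, at a log2 fold change of 1.07 ± 0.366 (SE) for APP-KI against WT and 1.09 ± 0.325 for APP-KI; C3aR-KO against C3aR-KO (adjusted p = 0.159 and 0.0597, limma). Without the 4 libraries with the fewest genes, an alternative chosen after seeing the data that leaves 1 C3aR-KO library, assumed to vary like the other groups, Fth1 rose by 1.21 and 1.49 (adjusted p = 1.82e-05 and 2.48e-05, limma). Leaving out only APP-KI; C3aR-KO replicate 1 raised the number of the 9 genes called higher from 1 to 2 and from 2 to 4 in these comparisons. The shares of all genes called in that fit are not given here, so these counts are no result about the 9 genes.

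Ftl1, the light chain that helps iron to mineralise inside the shell, stood at 158.3, 162.4 and 154.8 scaled reads in the WT libraries labelled C3aR-positive and at 373.6, 309.1 and 267.4 in the APP-KI libraries labelled C3aR-positive. The sorted WT libraries held 138.2, 194.8 and 211.8, the APP-KI libraries 181.0, 262.1 and 323.8, the C3aR-KO libraries 102.9, 135.5 and 174.0 and the APP-KI; C3aR-KO libraries 230.0, 250.0, 407.5, 352.9 and 374.5. The groups were apart in the comparison labelled C3aR-positive and in the C3ar1-deficient comparison and overlapped between WT and APP-KI, through APP-KI replicate 4. Ftl1 rose by 0.98 in microglia labelled C3aR-positive (SE 0.133, adjusted p = 0.000881, limma), by 0.67 in sorted APP-KI microglia (SE 0.158, adjusted p = 0.0248, limma) and by 1.06 in APP-KI; C3aR-KO microglia (SE 0.140, adjusted p = 0.00023, limma). The rise in sorted APP-KI microglia rested on few libraries: it passed the threshold in 18 of 26 alternative settings, and not when any of the 3 WT libraries or APP-KI replicate 5 or 6 was left out. The other rises of Ftl1 passed in all 14 and all 26 settings.

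Ftl1 counts carry an uncertainty from near-identical copies. At least 95% identity over at least 200 bases was shared with 7 annotated genes, of which Ftl1-ps1, 99.56% identical over 910 bases, is listed with counts of its own. Ftl1-ps1 rose by 2.00 in microglia labelled C3aR-positive (SE 0.195, adjusted p = 0.000189, limma), from 31.0 ± 1.95 to 129.7 ± 33.3 scaled reads (SD, n = 3), and held only 11.8 scaled reads in APP-KI replicate 4 and 11.2 in APP-KI; C3aR-KO replicate 1 against 52.1 to 150.5 in the other sorted libraries apart from C3aR-KO replicates 1 and 2, at 33.9 and 37.3. In sorted microglia the log2 fold changes of Ftl1-ps1 were 0.17 ± 0.679 (SE) for APP-KI against WT and 0.40 ± 0.604 for APP-KI; C3aR-KO against C3aR-KO (adjusted p = 0.9875 and 0.7593, limma). Reads of both genes cannot be told apart where their sequences match. Gpx4 and Ncoa4 had 2 and 1 such copies, none of them listed, and the other 6 genes had none.

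Ncoa4, the receptor that takes ferritin to lysosomes for iron release, separated the libraries as Slc40a1 did. The 9 libraries without APP-KI held 47.1 to 58.5 scaled reads and the 11 with it 24.2 to 37.5. The libraries labelled C3aR-positive held 49.3, 47.4 and 47.1 for WT and 30.4, 35.1 and 37.5 for APP-KI. In sorted microglia the values were 52.2, 52.4 and 49.3 for WT, 24.2, 33.4 and 37.3 for APP-KI, 47.1, 58.5 and 53.7 for C3aR-KO and 29.5, 37.0, 35.2, 35.5 and 37.1 for APP-KI; C3aR-KO. The groups did not overlap in any of the 3 comparisons, where 43.5%, 29.3% and 13.7% of all genes tested had groups that did not. Of the 3 tests 1 passed. The share of all genes that separate the 9 from the 11 libraries is not given here. Ncoa4 fell by 0.62 in APP-KI; C3aR-KO against C3aR-KO microglia (SE 0.175, adjusted p = 0.045, limma), a call held in 10 of 26 settings, and had log2 fold changes of -0.47 ± 0.161 (SE) in microglia labelled C3aR-positive and -0.66 ± 0.196 in sorted APP-KI microglia (adjusted p = 0.0607 and 0.0849, limma). Without the 4 libraries with the fewest genes, the fit chosen after seeing the data, Ncoa4 was lower by 0.52 and 0.55 in the sorted comparisons.

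Among the metal transporters, Slc11a1, which moves divalent metals out of the phagosome of macrophages, had 251.5, 279.1 and 256.3 scaled reads in the WT libraries labelled C3aR-positive and 474.0, 397.0 and 648.6 in the APP-KI libraries labelled C3aR-positive. It rose there by 0.92 on the log2 scale (SE 0.167, adjusted p = 0.00423, limma). The C3aR-KO libraries held 275.7, 157.8 and 312.0 and the APP-KI; C3aR-KO libraries 311.9, 450.5, 505.6, 503.2 and 568.0, overlapping by a single pair of values. Slc11a1 rose by 0.85 in that comparison (SE 0.205, adjusted p = 0.0209, limma), a call held in 21 of 26 settings. In sorted APP-KI against WT microglia, at 296.9, 444.0 and 458.6 against 339.7, 318.1 and 327.2, the log2 fold change was 0.38 ± 0.230 (SE, adjusted p = 0.626, limma). Without the 4 libraries with the fewest genes, the fit chosen after seeing the data, that of Slc11a1 was 0.47.

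Slc11a2, which carries iron across the plasma and endosomal membranes, had 22.8, 29.3 and 22.4 scaled reads in the WT libraries labelled C3aR-positive and 39.2, 45.9 and 58.9 in APP-KI microglia labelled C3aR-positive. It rose by 0.91 (SE 0.211, adjusted p = 0.013, limma). In the sorted libraries its log2 fold changes were 0.39 ± 0.303 (SE) for APP-KI against WT and 0.44 ± 0.269 for APP-KI; C3aR-KO against C3aR-KO (adjusted p = 0.774 and 0.388, limma). Slc11a2 passed in 1 of 26 alternative settings in each of these comparisons. The 3 lowest of the 14 values, 17.3, 17.7 and 21.1, were from libraries with the fewest genes, and the other 11 lay between 34.3 and 45.5.

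Tfrc, the receptor for transferrin-bound iron, was the lowest of the 9 genes, with 135 to 1375 reads per library, and passed the threshold in no comparison. The libraries labelled C3aR-positive held 6.04, 12.7 and 10.1 scaled reads for WT and 15.2, 28.8 and 10.6 for APP-KI, which overlapped. The log2 fold changes for APP-KI were 0.79 ± 0.416 (SE) in microglia labelled C3aR-positive, 0.25 ± 0.498 in sorted and 0.68 ± 0.443 in C3ar1-deficient microglia (adjusted p = 0.19, 0.973 and 0.425, limma). Their 95% intervals, -0.14 to 1.72, -0.82 to 1.31 and -0.27 to 1.62, are wide enough to hold a fold change as large as that of Ftl1. In C3aR-KO replicates 1 and 2 and in APP-KI; C3aR-KO replicate 1, Tfrc was at 3.68, 4.51 and 3.48 scaled reads, against 12.7 or more in the other 11 sorted libraries.

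Hmox1, which opens the heme ring and frees its iron, had 46.8, 42.2 and 42.9 scaled reads in the WT libraries labelled C3aR-positive and 94.0, 75.2 and 114.5 in APP-KI microglia labelled C3aR-positive. It rose by 1.07 (SE 0.170, adjusted p = 0.002, limma) and passed in all 14 settings. In sorted microglia it passed in none of the 26 settings of either comparison, at log2 fold changes of 0.10 ± 0.325 (SE) for APP-KI against WT and 0.74 ± 0.289 for APP-KI; C3aR-KO against C3aR-KO (adjusted p = 0.985 and 0.158, limma). The values were 60.3, 69.6 and 64.4 in WT, 93.8, 42.4 and 72.2 in APP-KI, 41.2, 35.3 and 58.5 in C3aR-KO and 124.1, 47.2, 85.9, 72.2 and 74.6 in APP-KI; C3aR-KO. Its highest sorted values were those of APP-KI; C3aR-KO replicate 1 and APP-KI replicate 4, which also had the highest sums of 11 genes raised by warm dissociation, 6011 and 6935 scaled reads against 2022 to 4941 in the other 18 libraries. The part of dissociation in these values was not tested. Among the libraries labelled C3aR-positive, where Hmox1 rose, the sums were 3446 to 4941 in WT and 2979 to 4012 in APP-KI.

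Gpx4, the selenoenzyme that reduces lipid hydroperoxides and protects cells from ferroptosis, passed in no comparison with all libraries. Its log2 fold changes for APP-KI were 0.28 ± 0.285 (SE) in microglia labelled C3aR-positive, 0.21 ± 0.366 in sorted and 0.52 ± 0.326 in C3ar1-deficient microglia (adjusted p = 0.485, 0.962 and 0.404, limma). It ranged from 7.92 to 26.4 scaled reads, and APP-KI replicate 4, at 11.3, was below all 3 sorted WT libraries, at 16.5 to 18.3, while APP-KI replicates 5 and 6, at 25.5 and 23.6, were above them. Without the 4 libraries with the fewest genes, a fit chosen after seeing the data that leaves 1 C3aR-KO library, its log2 fold changes were 0.47 and 0.40 in the sorted comparisons. Gpx4 passed in 2 of 26 alternative settings in each of them.

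**Figure D3:**
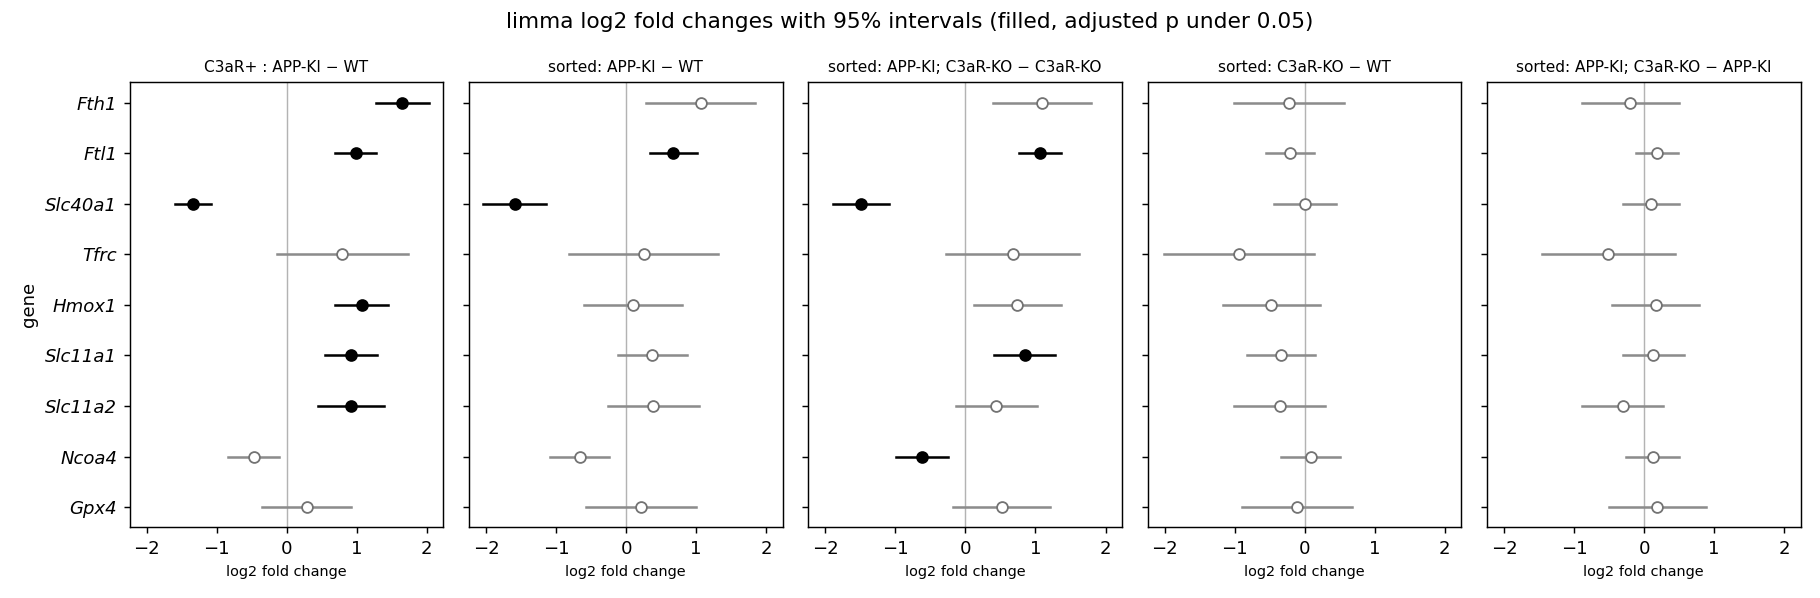
limma log2 fold changes of the 9 genes (x axis) with 95% intervals in 5 comparisons; filled points have an adjusted p-value under 0.05. Slc40a1 lies between -1.59 and -1.34 in the 3 comparisons of APP-KI with its controls and between 0.00 and 0.10 in both comparisons for loss of C3ar1.

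Because the 9 genes were chosen with earlier results of these data known, their counts and medians may partly follow from that choice. Over the 9 genes, 5 rose and 1 fell in microglia labelled C3aR-positive, where 13% of the 12312 genes tested rose and 9.71% fell. The median of the 9 was 0.91 on the log2 scale, beside -0.17 over all genes. In sorted APP-KI against WT microglia 1 rose and 1 fell, where 2.22% of 12406 genes rose and 1.93% fell, with a median of 0.25 beside -0.01. In APP-KI; C3aR-KO against C3aR-KO microglia 2 rose and 2 fell, where 3.96% rose and 2.97% fell, with a median of 0.68 beside -0.03. Groups did not overlap for 7, 3 and 3 of the 9 genes in these comparisons, beside 43.5%, 29.3% and 13.7% of all genes tested. Without the 4 libraries with the fewest genes 5 rose and 2 fell for APP-KI against WT, where 13.2% of 12563 genes rose and 14.7% fell, and 4 rose and 2 fell for APP-KI; C3aR-KO against C3aR-KO, where 13.2% rose and 18.2% fell. The number of all genes called thus changed with these 4 libraries as well. Whether the APP-KI effect differed between microglia labelled C3aR-positive and sorted microglia was tested as an interaction, in which none of the 9 genes and 0% of 12589 genes passed (836 genes higher and 644 lower, 4 of the 9 among them, at an unadjusted p under 0.05; 40 higher and 32 lower by DESeq2, and 0 by edgeR). The 9 interaction estimates lay from 0.18 to 1.04, with a median of 0.66 beside -0.02 over all genes tested. They are differences between the 2 comparisons of the sorts given below, and the share of all genes above 0 is not given here. The sort cannot be told apart from the library series or the reporter cross of the libraries labelled C3aR-positive.

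**Figure D4:**
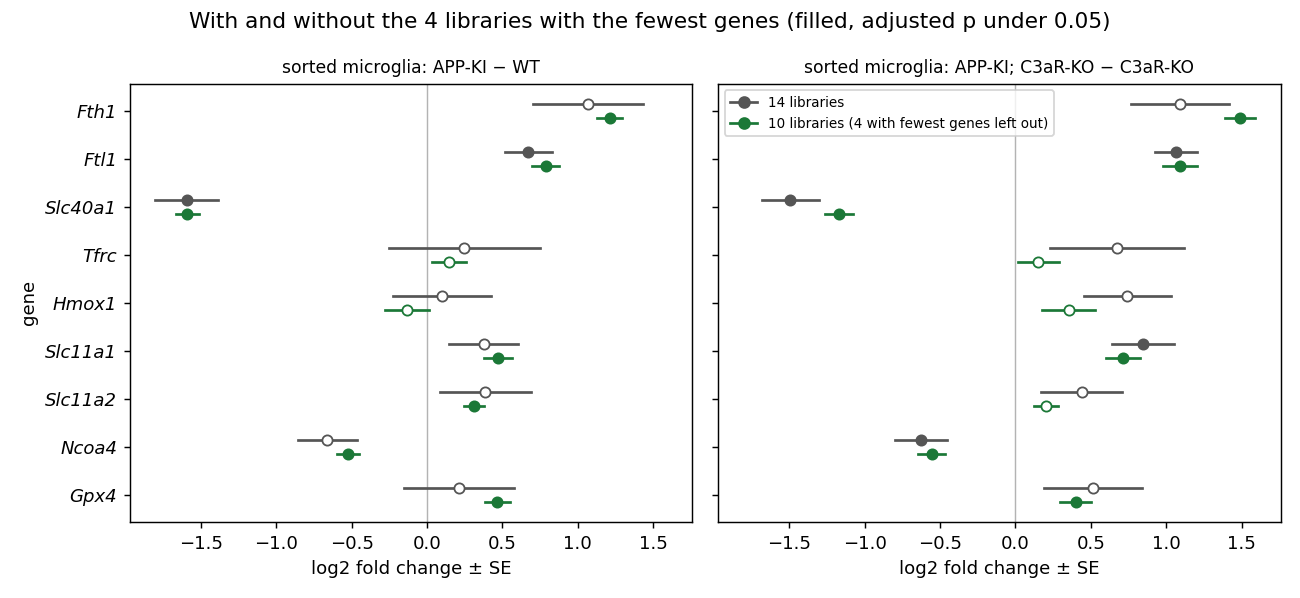
Log2 fold changes ± SE (x axis) of the 9 genes in the sorted comparisons with 14 libraries (grey) and without the 4 with the fewest genes (green); filled points have an adjusted p-value under 0.05. Fth1 moves from 1.07 to 1.21 and from 1.09 to 1.49 with a smaller SE, and Slc40a1 from -1.59 to -1.59 and from -1.49 to -1.17.

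Loss of C3ar1 was compared without and with plaques, the question the knockout was crossed for, and none of the 9 genes passed in either. In C3aR-KO against WT microglia 0.00806% of 12406 genes passed, which is the deleted C3ar1 itself, with 123 genes higher and 221 lower but none of the 9 at an unadjusted p under 0.05, 1 higher and 7 lower by DESeq2 and 1 lower by edgeR. Groups did not overlap for Hmox1 and Slc11a1, both lower in C3aR-KO, beside 18.5% of all genes tested. Slc40a1 differed by 0.00 on the log2 scale with a 95% interval from -0.45 to 0.45, Ftl1 by -0.21 (-0.55 to 0.13) and Fth1 by -0.23 (-1.01 to 0.56). The largest estimate was that of Tfrc, -0.94 ± 0.498 (SE), which became -0.06 without the 4 libraries with the fewest genes, 2 of them C3aR-KO.

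In APP-KI; C3aR-KO against APP-KI microglia 0.00806% of 12406 genes passed, again C3ar1, with 38 genes higher and 109 lower but none of the 9 at an unadjusted p under 0.05, and 1 lower by DESeq2 and by edgeR. Each APP-KI library serves here and in the comparison of APP-KI with WT, and each WT library there and in that of C3aR-KO with WT. Slc40a1 differed by 0.10 with a 95% interval from -0.30 to 0.50, Ftl1 by 0.18 (-0.12 to 0.48) and Fth1 by -0.20 (-0.89 to 0.50). The interval of Slc40a1 does not hold a value as large as its change with APP-KI, 1.59 below 0 (95% interval -2.04 to -1.15). The change of Ftl1 with APP-KI, 0.67, has an interval from 0.34 to 1.01 that overlaps the one for loss of C3ar1. A change of Ftl1 of like size is therefore not excluded. Hmox1 differed by 0.17 (-0.45 to 0.79) and Slc11a1 by 0.13 (-0.31 to 0.57). The groups overlapped for all 9 genes, where 1.61% of all genes tested had groups that did not. The interaction, loss of C3ar1 in APP-KI against its loss in WT, called 0% of 12406 genes and none of the 9 (111 genes higher and 92 lower but none of the 9 at an unadjusted p under 0.05, 1 higher by DESeq2 and 0 by edgeR), with an interval from -0.51 to 0.71 for Slc40a1 and from -0.07 to 0.85 for Ftl1.

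The order of the 6 conditions had the same upper and lower part for Slc40a1 and Ncoa4: the 3 conditions without APP-KI were highest and the 3 with it lowest, and the neighbours that did not overlap were WT labelled C3aR-positive and APP-KI; C3aR-KO. For Slc40a1, sorted WT and WT labelled C3aR-positive, which are not neighbours in this order, did not overlap either. For Fth1, Ftl1, Hmox1, Slc11a1, Slc11a2 and Gpx4 the 3 conditions with APP-KI had the highest means, but neighbours overlapped, except for sorted WT, whose lowest library stood above WT labelled C3aR-positive for Fth1 and Slc11a1 and above C3aR-KO for Hmox1. Against sorted WT, the 9 estimates in WT microglia labelled C3aR-positive were lower by 0.03 (Gpx4) to 0.80 (Tfrc) on the log2 scale. The median over all genes there was -0.02. Against sorted APP-KI, those in APP-KI microglia labelled C3aR-positive were higher by 0.03 to 0.49, where the median over all genes was -0.03. The shares of all genes lower or higher are not given here. None of the 9 passed in either comparison, where 0% of 12589 genes passed (at an unadjusted p under 0.05, 126 higher and 426 lower with 3 of the 9 among them in WT, and 200 higher and 457 lower with 0 of the 9 in APP-KI; by DESeq2, 2 higher and 31 lower and 0 higher and 43 lower; by edgeR, 0). In WT the groups did not overlap for 6 of the 9 genes, beside 23.0% of all genes tested, and in APP-KI for 0, beside 6.07%. The sort, the reporter cross and the library series cannot be told apart in these 2 comparisons.

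The other genes of iron and heme metabolism were taken from 8 lists with 78 genes in all, 69 of them outside the 9. In microglia labelled C3aR-positive 57 of the 69 were tested, of which 5 rose and 8 fell, where 13% of all genes tested rose and 9.71% fell, with a median of -0.01. All counts of the lists in this comparison are to be read against those shares. The iron storage list of 5 genes had 3 that rose, both ferritin chains among them, and 1 that fell. Of the iron chaperones that load ferritin, Pcbp1 fell by 0.56 and Pcbp2 rose by 0.57 (adjusted p = 0.018 and 0.0121, limma). Of 11 tested genes for iron uptake and reduction 3 rose and 1 fell. Trf, transferrin itself, rose by 0.95 (SE 0.149, adjusted p = 0.00186, limma), from 804.1 ± 100.4 to 1559 ± 201.4 scaled reads (SD, n = 3). Oligodendrocytes also make Trf, and the 5 oligodendrocyte markers summed to 85.5 to 113.9 scaled reads in the WT libraries labelled C3aR-positive and to 154.7 to 167.5 in the APP-KI libraries labelled C3aR-positive, with 1 of 4 tested markers higher; their part in the rise of Trf was not tested. Cd163, a scavenger receptor for hemoglobin that also marks border macrophages, fell by 1.38 (SE 0.232, adjusted p = 0.00274, limma).

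Of 8 tested genes for heme breakdown and transport 3 rose and 2 fell. Beside Hmox1, Slc48a1, which exports heme from lysosomes, rose by 0.73 and Pgrmc1, a heme-binding membrane protein, by 0.64 (adjusted p = 0.0224 and 0.0204, limma). The biliverdin reductase Blvrb fell by 1.08 and the second heme oxygenase, Hmox2, by 0.49 (adjusted p = 0.0332 and 0.0323, limma), so that both heme oxygenase genes moved in opposite directions. Slc25a37, the mitochondrial iron importer, fell by 0.91 and Hfe, a partner of the transferrin receptor, by 0.66 (adjusted p = 0.00306 and 0.00952, limma). Lpcat3, which puts polyunsaturated fatty acids into phospholipids, fell by 0.80 (adjusted p = 0.0395, limma). Txnrd1, listed with it for ferroptosis and lipid peroxide defence, rose by 0.49 (adjusted p = 0.0261, limma). Bach1, listed for iron sensing and regulation, fell by 0.34 (adjusted p = 0.0421, limma). None of 9 heme synthesis genes passed.

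In the sorted libraries 58 of the 69 genes were tested. None passed for APP-KI against WT, with a median of -0.05. For APP-KI; C3aR-KO against C3aR-KO none rose and 1 fell, Lpcat3, by 0.95 (SE 0.258, adjusted p = 0.0394, limma), with a median of -0.12. Trf, which rose in microglia labelled C3aR-positive, had log2 fold changes of -0.24 ± 0.298 (SE) and -0.10 ± 0.265 in them (adjusted p = 0.919 and 0.875, limma). The iron regulatory protein genes Aco1 and Ireb2 had fold changes between -0.22 and 0.14 in the 3 comparisons and did not pass. None of the 69 genes passed for loss of C3ar1, with or without APP-KI.

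Likeness was measured as Pearson's r of log2(scaled reads + 1) over the 14 sorted libraries, after the mean of each library series was subtracted, and is a description of libraries that share genotype, depth and the 4 libraries with the fewest genes. Closest to Slc40a1 among 12405 genes were Atp6v0a2, Fmnl1 and Bank1 (r = 0.985, 0.984 and 0.984). Closest to Fth1 were Eef1a1, Gm1673 and Glb1 (r = 0.976, 0.974 and 0.969), and to Ftl1 Ephx1, St8sia6 and Bri3bp (r = 0.968, 0.966 and 0.966). Agps, Sema4b and Clec4a3 were closest to Ncoa4 (r = 0.985, 0.973 and 0.967), and Colgalt1, 4931406P16Rik and Nab2 to Slc11a1 (r = 0.986, 0.985 and 0.973). For Slc11a2 they were B3gnt7, Mrps36 and Lyplal1 (r = 0.983, 0.981 and 0.98), for Tfrc Alkbh7, Plcxd1 and Fndc10 (r = 0.988, 0.977 and 0.976), for Gpx4 Agpat4, Gna14 and Fkbp1a (r = 0.97, 0.97 and 0.967) and for Hmox1 Nr2c1, Snx30 and Cby1 (r = 0.932, 0.93 and 0.927).

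Among the 9 genes themselves, Slc40a1 and Ncoa4 had an r of 0.901 and Fth1 and Ftl1 of 0.83, while Slc40a1 had -0.899 with Ftl1. Tfrc and Slc11a2 had an r of 0.945, and both were lowest in 3 of the libraries with the fewest genes. Hmox1 had -0.69 with Ncoa4, 0.373 with Ftl1 and -0.0428 with Fth1.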

How the data were processed

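RNA of sorted microglia was sequenced from 20 libraries on an Illumina NovaSeq, with a Takara SMARTer total RNA kit that carries UMIs. The authors aligned reads to mm10 with TopHat, and cutadapt, featureCounts and DESeq2 are named in their processing notes. Whether UMIs were collapsed is not given in the sources used here. The deposited values are named FPKM but hold a signal: read counts over the upper quartile of their library, not divided by gene length. Multiplying back gave whole reads in 100% of cases (tolerance 0.01 reads), 13939559 to 76608464 per library, and intervals cover the spread between libraries. Of 21326 rows, 10 duplicated symbols were summed, which left 21315 symbols.

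All values were multiplied by 35.2, and genes with a mean of at least 1 were tested on log2(value + 1) with limma 3.58.1 (trend, R 4.3.3), with Benjamini-Hochberg adjustment across the table. A separate fit held the 6 C3aR-positive libraries, the 14 others were fitted with the library series as a term, and the 12 WT or APP-KI libraries of both sorts without one. The scripts were tested on simulated data. Recovered reads were tested with edgeR 4.0.16 and DESeq2 1.42.0 as alternatives. Copies were found with BLAST 2.17.0 (at least 95% identity over 200 bases). Other steps ran in Python 3.11.15 with pandas 2.3.3.

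Named genes are the 9 genes, the 3 genes most like each of them, and C3ar1. Added were the up to 8 largest rises and falls past the adjusted p-value, ranked among all 78 listed iron genes, the 9 included. Aco1, Ireb2, Pcbp2, Txnrd1, Bach1, Ftl1-ps1 and the cell type markers were named after they were seen. The members and lists were chosen with earlier results of these data known. Settings varied were the pseudocount (0.1), the filter (none, or a mean of 5), median ratio and TMM scaling, edgeR, DESeq2, each library left out, no series term, a series term for the 12-library fit, only the 2 groups compared, and a replicate block; leaving out the 4 libraries with the fewest genes, and APP-KI replicate 5 with them, was added after seeing the data.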

Additional observations from a re-analysis of the deposited data

Results flagged for a closer look

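In the group of 5 APP-KI; C3aR-KO libraries, replicate 1, 1 of the 4 libraries with the fewest genes, stood apart from the other 4 for 5 of the 9 genes by Dixon's test at the 95% level. It was lowest for Slc40a1 (51.2 scaled reads), Tfrc (3.48), Slc11a2 (17.3), Ncoa4 (29.5) and Gpx4 (17.7), and its gap to the next library took 0.735, 0.768, 0.892, 0.744 and 0.716 of the group's range, above the critical value of 0.71. Chance alone sets apart about 1 in 20 groups, and the genes share the library. Without it, 2 of the 9 genes rose and 2 fell in APP-KI against WT, and 4 rose and 2 fell in APP-KI; C3aR-KO against C3aR-KO microglia. The shares of all genes called without it are not given here.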

How the results depend on the processing

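No alternative changed the counts of genes called for loss of C3ar1, for both interactions or for the sort, all 0 of 9. In microglia labelled C3aR-positive the 5 rises held in every setting, and no filter, a filter at 5 and DESeq2 called 2 falls in place of 1. DESeq2 called 1931 of all 12312 genes higher and 1586 lower there, against 1602 and 1196 in the main fit. For APP-KI against WT in sorted microglia the rises numbered 2 by DESeq2, 0 without the series term, 0 in the 2 groups alone, 0 with a replicate block, 5 without the 4 libraries with the fewest genes and 4 without APP-KI replicate 5 as well; the falls numbered 2 by DESeq2 and with these libraries out. For APP-KI; C3aR-KO against C3aR-KO the rises numbered 1 with no filter, in the 2 groups alone and with a replicate block, and 4 in both fits without those libraries; the falls numbered 1 under median ratio or TMM scaling, without the series term, in the 2 groups alone and with a replicate block. For APP-KI against WT DESeq2 called 377 of all 12406 genes higher and 369 lower, against 275 and 239 in the main fit. For APP-KI; C3aR-KO against C3aR-KO 553 were higher and 285 lower under median ratio scaling. Under TMM scaling they were 537 and 294, against 491 and 369 in the main fit. Shares of all genes are not given for the other settings, apart from the fit without the 4 libraries, so those counts are no result about the 9 genes. The cause of these changes was not tested.

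Leaving out 1 library at a time gave 5 rises and 1 fall throughout for microglia labelled C3aR-positive. It gave 0 to 2 rises and 1 to 2 falls for APP-KI against WT, with 0 rises without WT 4, 5 or 6 or APP-KI 5 or 6. It gave 1 to 4 rises and 1 to 2 falls for APP-KI; C3aR-KO against C3aR-KO, with 1 rise without C3aR-KO 2 or APP-KI; C3aR-KO 2, and 1 fall without any one of the WT or C3aR-KO libraries, APP-KI 6 or APP-KI; C3aR-KO 2, 3, 4 or 5. In every comparison other than these the counts stayed at 0. Shares of all genes called are not given for the fits with 1 library left out.

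Signs turned only for values that had not passed. For APP-KI against WT, Tfrc was -0.03 without the series term and -0.01 with a replicate block, and Hmox1 -0.13 without the 4 libraries with the fewest genes. For C3aR-KO against WT, Slc40a1 was -0.01 under median ratio and -0.02 under TMM scaling, -0.03 without the series term, -0.07 in the 2 groups alone, -0.18 without the 4 libraries and -0.16 without APP-KI replicate 5 as well, while Slc11a2 was 0.10 in both of these fits and Gpx4 0.07 and 0.05. For loss of C3ar1 in APP-KI microglia, Fth1 was 0.06 without the series term and, with a replicate block, Fth1 was 0.61, Tfrc 0.01, Hmox1 -0.44 and Slc11a2 0.19; without the 4 libraries and APP-KI replicate 5, Slc11a2 was 0.03 and Ncoa4 -0.05.
With 1 library left out, values ranged for APP-KI against WT from -0.17 to 0.36 for Hmox1 and -0.03 to 0.49 for Gpx4, for C3aR-KO against WT from -0.34 to 0.01 for Fth1, -0.18 to 0.16 for Slc40a1, 0.00 to 0.17 for Ncoa4 and -0.42 to 0.23 for Gpx4, and for loss of C3ar1 in APP-KI from -0.41 to 0.21 for Fth1, -0.01 to 0.29 for Slc40a1, -0.12 to 0.44 for Hmox1, -0.01 to 0.27 for Slc11a1, -0.03 to 0.25 for Ncoa4 and -0.10 to 0.44 for Gpx4.

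Pairing of the libraries by replicate number was not apparent. Deviations of same-numbered libraries had an r of 0.02, 0.04 and -0.01 in the groups labelled C3aR-positive and 0.25, 0.09 and 0.11 in WT and APP-KI. The r was 0.00, 0.07 and 0.22 in the C3ar1-deficient groups and -0.30 and 0.03 in the groups compared for loss of C3ar1 in APP-KI. Some libraries but not all correlated best with their own number, and groups this small cannot exclude pairing. With 3 libraries in most groups, and 135 to 1375 reads of Tfrc, small changes of the low genes were not detectable.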
